A study of Saccharomyces cerevisiae with 3 samples.

Results

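The subunits of the RNA polymerases of budding yeast were read on 3 expression arrays, with 31 probe sets for 31 genes out of 10762 non-control probe sets. The rule for a member uses the name and no measured value: the gene symbol in the platform annotation had to be RPA, RPB, RPC or RPO in capitals, followed only by digits. The set holds 7 subunits found only in polymerase I, 7 only in polymerase II, 9 only in polymerase III, 5 shared by all 3 nuclear enzymes, 2 shared by polymerases I and III, and RPO41, the mitochondrial enzyme. RET1, which encodes the second-largest subunit of polymerase III, has a symbol outside the pattern and is given beside the members.

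All 3 arrays measured total RNA of Saccharomyces cerevisiae strain W303, MAT-alpha, with cdc15-2, a conditional allele of a kinase gene required for mitotic exit, grown in minimal medium at 23 °C and taken 340 minutes after the restrictive temperature was lifted. The baseline array held this yeast material alone (100% baseline, 0% spike), and the other arrays held 99% baseline with 1% spike and 90% baseline with 10% spike. What the spike was is not given in the sources used here. Each group is 1 array, so the differences below have no replicate check, no test was possible, and precision is limited by there being 1 array per condition.

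Eukaryotic nuclei divide transcription among polymerase I, which makes the large ribosomal RNA precursor, polymerase II, which makes messenger RNAs, and polymerase III, which makes transfer RNAs and 5S ribosomal RNA. The enzymes share a catalytic core built on a common plan, in which some subunits are the same protein in each enzyme and others are related proteins encoded by separate genes. In growing yeast most transcription serves ribosome and transfer RNA production, whereas the mitochondrial genome is read by a single-subunit enzyme related to phage polymerases.

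Values are the authors' deposited RMA expression levels, treated as log2, and a difference is the log2 level in one array minus that in another. The level of a probe set depends on how well its probes bind as well as on the amount of RNA, so levels of different subunits are listed as measured and their order is not an order of messenger RNA amounts. Over the 5498 probe sets named as S. cerevisiae genes, the median level in the baseline array was 10.81, with quartiles of 9.79 and 11.97. The middle 95% of their differences ran from -0.064 to 0.066 for 1% over baseline and from -0.23 to 0.17 for 10% over baseline. RMA gives the arrays nearly the same distribution, so a shift common to most genes could not show.

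In the baseline array the 31 subunits ran from 9.55 for RPC17 to 13.07 for RPO21, with a median of 11.96. Of them, 23 lay above the S. cerevisiae median, 15 above its upper quartile and 2 (RPC17 and RPC53) below its lower quartile. The range over the members was 9.55 to 13.09 in the 1% array and 9.40 to 13.13 in the 10% array.

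The listed levels differed by enzyme class in the same way in each array. The arrays held 100%, 99% and 90% baseline material and the same probe sets, so they are not independent readings of this order. The class median was 11.82 for polymerase I, 12.01 for polymerase II, 10.34 for polymerase III, 12.58 for the subunits common to all 3 enzymes and 12.23 for those shared by I and III in the baseline array. In the 10% array the same medians were 11.80, 12.01, 10.32, 12.62 and 12.30. Of the 9 subunits found only in polymerase III, 7 lay between 9.55 and 10.52, below the dimmest member of any other class, RPA43 at 10.78. The exceptions were RPO31 at 11.41 and RPC11 at 11.97, and RET1 was also brighter, at 12.16. Whether RNA amount or probe binding sets this spread between classes was not tested.

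**Figure D1:**
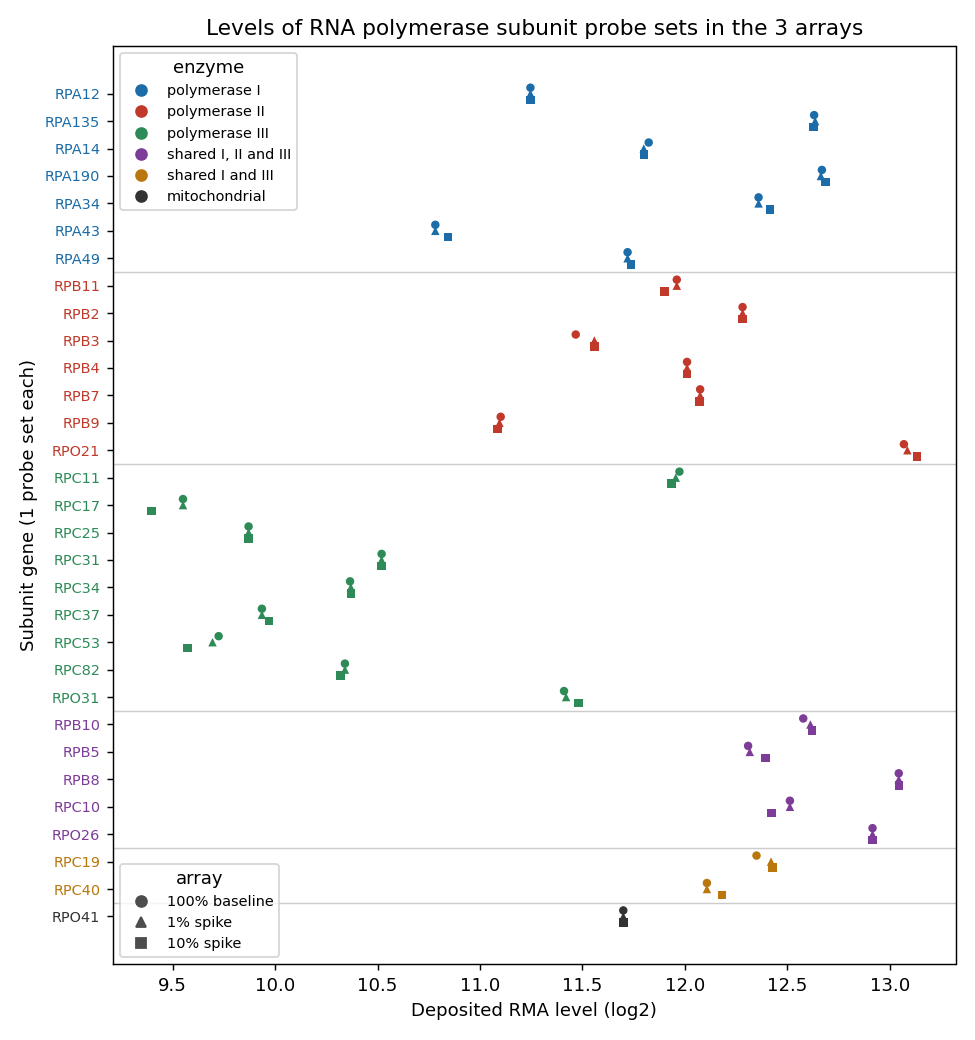
Deposited level (log2, horizontal axis) of each subunit probe set in the 3 arrays, 1 row per gene, with circles for the baseline array, triangles for the 1% array and squares for the 10% array, coloured by enzyme. The 3 symbols of a gene lie close together, and 7 of the 9 polymerase III genes lie at 10.52 or below in the baseline array.

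Lower-case symbols of the same pattern gave a measure of how far the subunits lie above dim probe sets of the same array. The platform carries 30 of these, whose organism is not named in the annotation used. Their levels in the baseline array ran from 3.999 to 6.60, with a median of 4.51, and 0 of the 30 reached the dimmest capital-letter member. For 25 of them a member has the same letters, and the member was higher in 25 of 25. The lower quartile of all S. cerevisiae probe sets, 9.79, also lay above the highest lower-case level, so this separation is not particular to the subunits. The gap ran from 4.17 (RPC25 against rpc25) to 8.92 (RPB8 against rpb8), with a median of 6.95. The same letters do not always name the same subunit in different organisms, so the gaps describe the array and not a pair of genes.

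**Figure D2:**
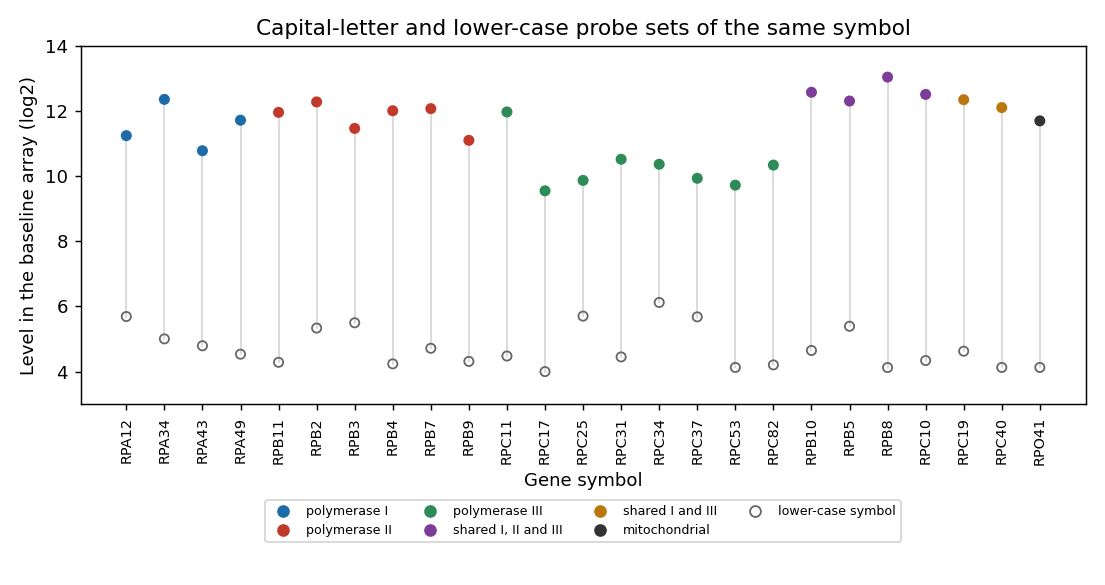
Level in the baseline array (log2, vertical axis) of the 25 subunits whose symbol also occurs in lower case on the platform, with filled circles for the capital-letter probe set and open circles for the lower-case one. Every filled circle lies above its open partner, by 4.17 or more.

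Adding 1% spike left the subunit levels nearly where they were. The differences from the baseline array ran from -0.030 for RPC53 to 0.091 for RPB3. Of the 31, 8 were higher at all (22.6% of S. cerevisiae probe sets were), 5 lower at all (14.5%) and 18 equal to 3 decimals. Of the 5498 S. cerevisiae probe sets, 3457 were equal, so equality was common over the whole array. None reached a difference of 0.1, a ratio of 1.07, in either direction, against a background of 0.746% of S. cerevisiae probe sets higher and 1.24% lower by as much. The 2-fold mark was passed by 0 members in either direction and by 0% of S. cerevisiae probe sets.

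With 10% spike the differences widened but stayed small. They ran from -0.15 for RPC17 to 0.091 for RPB3, and the median of the 31 was 0, as for all S. cerevisiae probe sets. In this comparison 13 members were higher at all (background 45.1%), 10 lower at all (27.2%) and 8 equal (background 1523 of 5498). At 0.1 or more, 0 members were higher, where the background was 9.49%, and 2 were lower, RPC17 and RPC53, where it was 8.09%. The 2 are 6.45% of the members, so the share lower by 0.1 is near the background. With each array centred on its S. cerevisiae median, the background was 5.91% higher and 11.1% lower, and 3 members were lower, RPC10 being the addition. At 2-fold the counts were 0 and 0, beside 0.0182% higher and 0.0364% lower in the background. The 10% and the 1% array differed by 0.1 or more for the same RPC17 and RPC53, both lower, and for 0 members higher (background 6.55% and 6.78%). These comparisons share arrays.

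**Figure D3:**
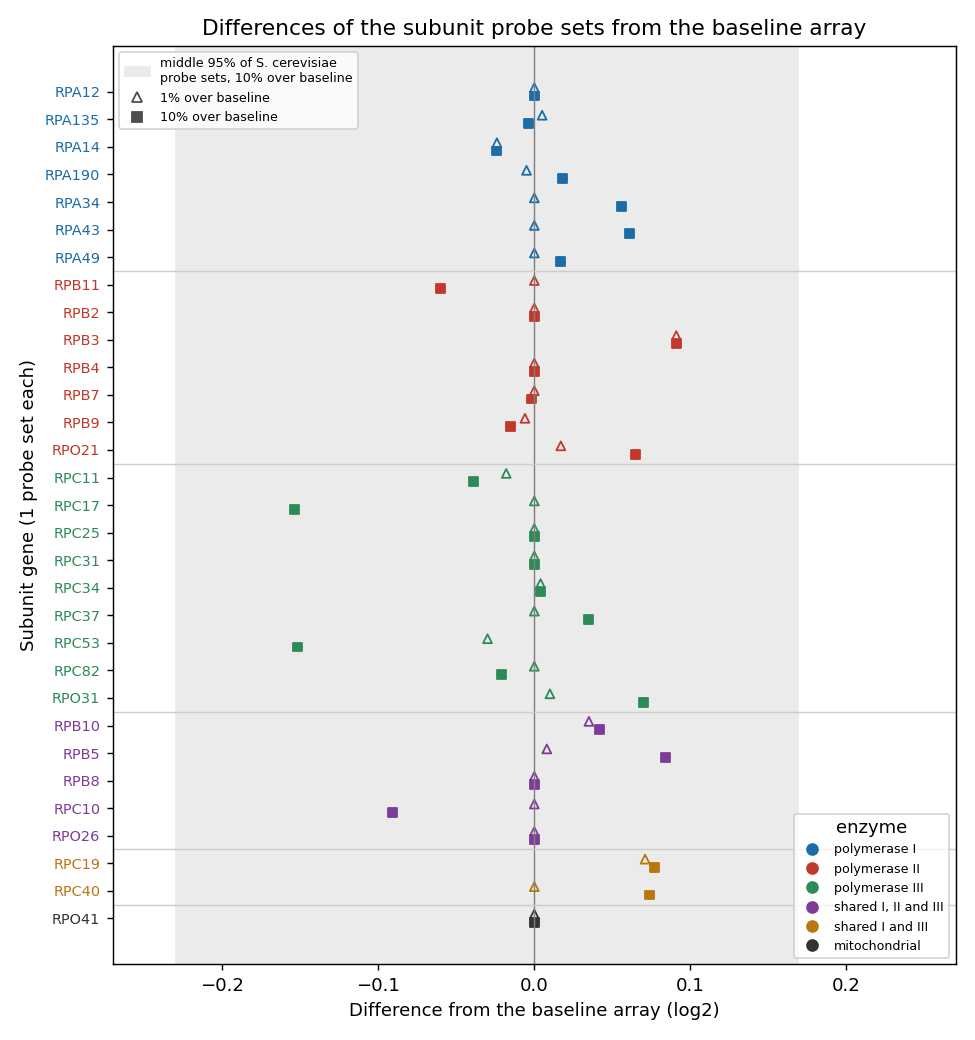
Difference from the baseline array (log2, horizontal axis) for each subunit, with open triangles for the 1% array and filled squares for the 10% array, coloured by enzyme; the grey band holds the middle 95% of S. cerevisiae probe sets for 10% over baseline, -0.23 to 0.17. All 31 squares lie inside the band, and the lowest 2 are RPC17 and RPC53.

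The largest subunits carry the active site cleft. RPO21, the polymerase II subunit whose repetitive tail is phosphorylated during transcription, was at 13.07 in the baseline, 13.09 in the 1% and 13.13 in the 10% array, and was highest in the 10% array by 0.065 over baseline. RPO31 of polymerase III read 11.41, 11.42 and 11.48, a difference of 0.070 at 10%. RPA190 of polymerase I read 12.67, 12.66 and 12.69, a difference of 0.018. All 3 were above baseline in the 10% array as deposited, each by less than 0.1, as were 45.1% of all S. cerevisiae probe sets by any amount. With other scalings RPA190 lay between -0.012 and 0.001.

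The second-largest subunits complete the cleft and showed almost no difference as deposited. RPA135 of polymerase I read 12.630, 12.635 and 12.626, a 10% over baseline difference of -0.004. RPB2 of polymerase II was at 12.28 in all 3 arrays, with equal values to 3 decimals. With other scalings the 10% over baseline difference lay between -0.031 and -0.021 for RPA135 and between -0.026 and -0.017 for RPB2. RET1 of polymerase III was at 12.16, 12.16 and 12.17, a difference of 0.013.

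The subunits related to the bacterial alpha subunit form the platform on which the enzymes assemble. RPC40 and RPC19, which pair in polymerases I and III, were both higher in the 10% array, by 0.074 and 0.077. RPC40 read 12.11 in the baseline and 1% arrays and 12.18 in the 10% array, whereas RPC19 read 12.35, 12.42 and 12.43, so it was already higher in the 1% array. The polymerase II counterparts lay on opposite sides of 0. RPB3 went from 11.47 to 11.56 in both spiked arrays, a difference of 0.091, the largest upward one among the members. RPB11, its partner, was at 11.96, 11.96 and 11.90, a difference of -0.060.

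The 5 subunits common to all nuclear enzymes had the highest listed class median, with levels from 12.31 to 13.04 in the baseline array. RPB8 was at 13.04 and RPO26 at 12.92 in all 3 arrays without any difference. RPB5, part of the jaw that grips incoming DNA, read 12.31, 12.32 and 12.39, a difference of 0.084. RPB10 and RPC10 are small zinc-binding subunits of the same gene length, 213 bases in assembly R64, and differed in opposite directions. RPB10 read 12.58, 12.61 and 12.62, a difference of 0.042, and RPC10 read 12.51, 12.51 and 12.42, one of -0.091. The class median difference was 0.

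RPA12, RPB9 and RPC11 are related subunits that act in RNA cleavage and proofreading. RPA12 was at 11.25 in all 3 arrays. RPB9 read 11.10, 11.10 and 11.09, a difference of -0.015. RPC11, also needed for polymerase III termination, read 11.97, 11.96 and 11.93, a difference of -0.039. None of the 3 was above baseline in the 10% array, where 45.1% of all S. cerevisiae probe sets were.

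Each nuclear enzyme has a stalk of a pair of subunits near the RNA exit. In polymerase II the pair showed almost no difference as deposited: RPB4 was at 12.01 in all 3 arrays and RPB7 at 12.07, with differences of 0 and -0.002. In polymerase I, RPA43, through which the initiation factor Rrn3 binds the enzyme, read 10.78, 10.78 and 10.84, a difference of 0.061. Its partner RPA14 read 11.82, 11.80 and 11.80, a difference of -0.024. In polymerase III, RPC17 read 9.55, 9.55 and 9.40, a difference of -0.15 that corresponds to a change of -10.1% on the linear scale. Its partner RPC25 was at 9.87 in all 3 arrays.

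Polymerases I and III also carry built-in subunits related to the polymerase II initiation factor TFIIF. In polymerase I both were slightly higher in the 10% array as deposited, but RPA49 lay between -0.009 and -0.001 with other scalings. RPA34 read 12.36, 12.36 and 12.42, a difference of 0.056, and RPA49 read 11.72, 11.72 and 11.74, one of 0.017. The polymerase III pair, which takes part in termination, differed in opposite directions. RPC37 read 9.94, 9.94 and 9.97, a difference of 0.035. RPC53 read 9.73, 9.70 and 9.57, a difference of -0.15 and the only member of the pair lower in both spiked arrays.

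The 3 subunits of the TFIIE-like group of polymerase III act together in opening the promoter and stayed close to baseline as deposited. RPC82 read 10.34, 10.34 and 10.32, a difference of -0.021 that lay between -0.055 and -0.035 with other scalings. RPC34, which contacts the initiation factor Brf1, read 10.37 in each array, a difference of 0.004 that lay between -0.025 and -0.011 with other scalings. RPC31 was at 10.52 in all 3 arrays. RPO41, the mitochondrial polymerase, was at 11.70 in all 3 arrays.

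By enzyme, the median 10% over baseline difference was 0.017 for polymerase I (4 higher, 1 equal, 2 lower) and between -0.012 and -0.001 with other scalings. It was 0 for polymerase II (2 higher, 2 equal, 3 lower) and 0 for polymerase III (3 higher, 2 equal, 4 lower). Over all S. cerevisiae probe sets 45.1% were higher and 27.2% lower, and counts this small do not set an enzyme apart from that. For the subunits shared by I and III it was 0.076 over 2 genes as deposited and between 0.050 and 0.059 with other scalings. No class median differed from that of all S. cerevisiae probe sets by more than 0.1, and with 1 array per group the differences between classes could not be tested. RPA190 and RPA43 are the only members that neighbour each other in the gene order of assembly R64, and their differences were 0.018 and 0.061.

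The 2 subunits lower by 0.1 or more also had the lowest levels. RPC17 and RPC53 were the only members in the lowest of 4 equal bins of S. cerevisiae mean level (under 9.79), and in that bin 22.3% of 1374 probe sets were lower by 0.1 or more in the 10% array and 6.91% higher. In the bin from 9.79 to 10.82, with 6 members, 5.09% were lower by as much and 12.7% higher. From 10.82 to 11.97, with 9 members, the shares were 2.99% and 11.9%. In the brightest bin, with 14 members, they were 2.03% and 6.4%. In each bin 0 members were higher by as much. The part of level in the differences of RPC17 and RPC53 was not tested.

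**Figure D4:**
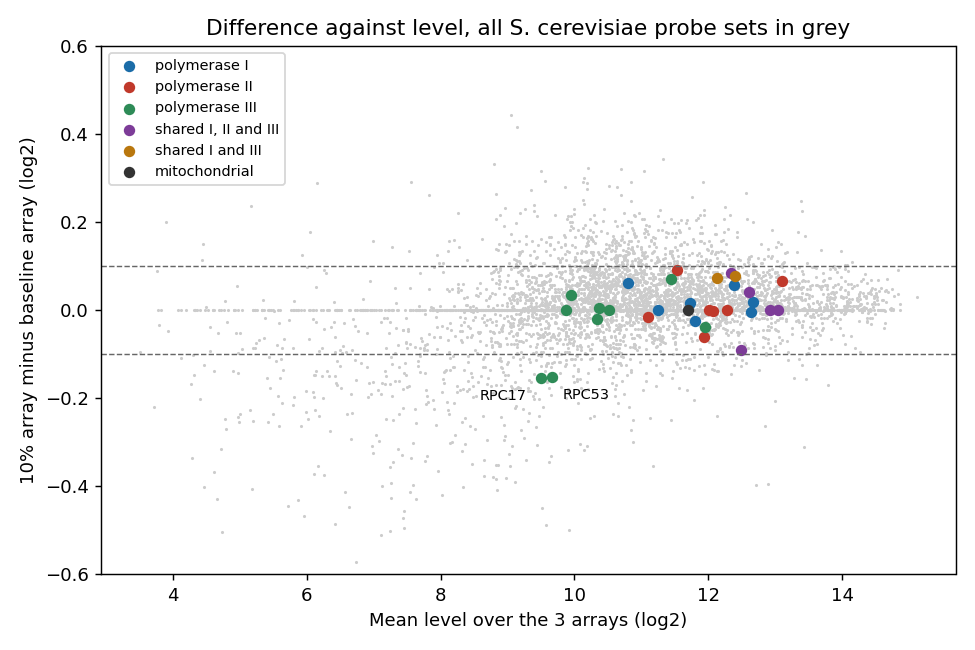
Difference between the 10% and the baseline array (log2, vertical axis) against the mean level over the 3 arrays (log2, horizontal axis), with grey points for S. cerevisiae probe sets, coloured points for the subunits and dashed lines at -0.1 and 0.1; 14 grey points lie outside the plotted range. RPC17 and RPC53 are the only coloured points past a dashed line and lie at the left edge of the subunits, where many grey points are also below -0.1.

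Exactly equal values were common. Median polish, the summary step of RMA, can give such values, and whether it did so here was not tested. For 8 members all 3 arrays agreed to 3 decimals (RPA12, RPB2, RPB4, RPB8, RPC25, RPC31, RPO26 and RPO41), which is 25.8% against 25.9% of S. cerevisiae probe sets. For 10 the baseline and 1% arrays were equal and the 10% array differed (32.3% against 36.9%), and for 3 (RPA14, RPB3 and RPC34) the 1% and 10% arrays were equal and the baseline differed (9.68% against 8.68%). Baseline and 10% were equal with the 1% array apart for 0 members (background 1.76%), and all 3 values differed for 10 (32.3% against 26.7%). A difference of 0 here is a property of the summarised values and does not show that the RNA amount was equal.

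Genes that work with the polymerases were read from 6 lists with 58 genes besides RPO41, all measured. Of these, 4 were higher and 6 lower by 0.1 or more in the 10% array (6.9% and 10.3% of them, near the 9.49% and 8.09% of all S. cerevisiae probe sets). Their median was 0, and 17 were equal, where 1523 of all 5498 S. cerevisiae probe sets were. In the polymerase I factors (10 genes, median 0.012), 0 were higher and 1 lower by as much: RRN5 of the upstream activating factor at -0.12. Its levels were 9.379, 9.345 and 9.262, in the dimmest bin (under 9.79), where 22.3% of probe sets were lower by as much. RRN3, the factor that readies polymerase I for initiation, was at 0.098. In the polymerase III factors (9 genes, median 0), 0 were higher and 2 lower, the TFIIIC subunit genes TFC1 at -0.18 (levels 9.86, 9.86 and 9.68) and TFC7 at -0.10. MAF1, the repressor of polymerase III, was at 0.089.

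In the polymerase II general factors (19 genes, median 0), 1 was higher and 0 lower. That gene was SPT15, which encodes the TATA-binding protein used by all 3 nuclear enzymes, at 12.48, 12.52 and 12.59, a difference of 0.10; SSL1 of TFIIH followed at 0.082. In the elongation factors (10 genes, median 0.011), DST1, which stimulates RNA cleavage by polymerase II and is named here after its value was seen, was higher by 0.12. Of the Paf1 complex, 2 members were lower, PAF1 at -0.25 and RTF1 at -0.14, and its other genes in the list lay between -0.056 and 0.037. PAF1 read 10.96 in the baseline and 1% arrays and 10.71 in the 10% array, the widest difference in any of the lists. In the assembly and import list (7 genes, median 0), RBA50 was at 0.17 and RTP1 at -0.11. In the mitochondrial list, MTF2 was at 0.11 and MTF1, the specificity factor that works with RPO41, at 0.071.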

How the data were processed

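Levels were used as the authors deposited them. The deposited table holds 1 value per probe set and array, taken as log2, and RMA is named per the submitters' processing notes. No label states the scale, which was inferred from what RMA returns and from values between 3.47 and 15.13. The sources used here do not name an RMA version, the arrays processed together or a genome build. Of 10928 probe sets, 166 with IDs starting with AFFX were left out as controls. Names came from the platform annotation; S. cerevisiae genes are those whose gene identifier is in the RefSeq table of assembly R64 (5498 probe sets). All 31 members had 1 probe set each, of the kind with a plain "_at" suffix.

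Differences were rounded to 3 decimals and counted at 0.1 and at 1 (2-fold), with no test, since each group is 1 array. The members, classes and lists were chosen with earlier results of these data known. Genes outside the pattern are named if they were listed by name (RET1, MTF1, MAF1, RRN3, SPT15) or had one of the 2 largest absolute differences of their list; DST1 was named after its value was seen. Alternatives were array centring, repeated quantile normalization, removal of a loess trend (span 0.3), other thresholds and other member sets. Python 3.11.15, pandas 2.3.3, statsmodels 0.14.6 and matplotlib 3.10.9 were used.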

Additional observations from a re-analysis of the deposited data

How the results depend on the processing

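The counts at 0.1 depend on where the threshold is set. At 0.05, 8 subunits were higher (22.7% of S. cerevisiae probe sets) and 4 lower (14.9%) in 10% over baseline. At 0.2 the counts were 0 and 0, but the background shares were not computed at that threshold. The counts at 0.2 therefore do not set the subunits apart from other S. cerevisiae probe sets. Centring, repeated quantile normalization and loess removal each gave 0 higher and 3 lower, since RPC10 then passed -0.1. These scalings moved the median of all S. cerevisiae probe sets by -0.026, -0.013 and -0.007 and changed the background from 9.49% higher and 8.09% lower to 5.91% and 11.1%, 6.38% and 9.53%, and 7.53% and 8.6%. They moved no subunit by more than 0.034. The signs of small differences depend on the scaling: members above 0 numbered 13 as deposited and 10, 10 and 11 after the scalings, and those below 0 numbered 10 and then 21, 21 and 20. As deposited, 45.1% of S. cerevisiae probe sets were above 0 and 27.2% below. Those shares were not computed after the scalings. The 8 members equal as deposited all fell below 0 after each scaling, which is part of the rise in the count below 0. The polymerase I median, 0.017 as deposited, was -0.009, -0.012 and -0.001. The median of the subunits shared by I and III, 0.076 as deposited, was 0.050, 0.057 and 0.059. Adding RET1 to polymerase III and leaving out dim members moved no class median, and adding MTF1 moved that of the mitochondrial class by 0.036. The dim members were only RPC17 and RPC53, so leaving them out could change no class but polymerase III. Averaging probe sets and leaving out those of several transcripts could not change a value, since each member has 1 probe set of the plain kind. No paired analysis was possible because each group holds 1 array. Dim probe sets limit the reading of RPC17 and RPC53, which lie in the dimmest of the 4 level bins, where 22.3% were at or below -0.1.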
